A study of Mus musculus with 4 samples.

Results

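The genes described here set the direction of glucose flux in the liver: the gluconeogenic enzymes G6pc, Pck1 and Fbp1, the glycolytic control enzymes Pklr, Hk2 and Pfkfb3, the glucose transporters Slc2a1 and Slc2a2, and the transcriptional coactivator Ppargc1a. They were chosen by symbol, as every probe that the array annotation gives to 1 of these 9 names, and 11 probes were found. The array names 37074 genes, of which 20616 were well above background on at least 1 array by the scanner's own flag. All 9 genes were among these 20616, and 7 of the 9 were well above background on all 4 arrays, as were 16612 genes of the whole array. G6pc passed on the 2 untreated arrays only, and Pck1 on the Drp1LiKO palmitate array only.

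RNA came from cultured primary hepatocytes of C57BL/6 mice, with 1 array for each of 4 groups. The untreated groups are control and Drp1LiKO, and the other groups are control and Drp1LiKO given 200 μM palmitate, a saturated fatty acid. Drp1LiKO marks deletion of Dnm1l, which encodes the fission factor Drp1 of mitochondria, by Cre under the albumin promoter, which is active in hepatocytes. Controls are floxed littermates without Cre according to the methods, and the title of the palmitate control also says Drp1flox, whereas the source field of both calls them wild-type. The animals were male according to the methods, and the age of the mice behind these arrays is not given in the sources used here. All groups shared a medium with 4500 mg/L glucose, 1 μM insulin and 10% serum, and the labels give harvest at 24 h after seeding without the length of the palmitate exposure. This medium limits the cultures as a model of fasting. The untreated control array shares its raw data with a sample deposited elsewhere, as its label notes. Nothing was replicated, so the variation between mice or cultures behind any value here is unknown.

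Glucose enters and leaves hepatocytes mainly through the transporter GLUT2, encoded by Slc2a2, and is trapped as glucose 6-phosphate by hexokinases. Gluconeogenesis runs around the irreversible steps of glycolysis by means of its own enzymes. In fasting, glucagon and glucocorticoids raise transcription of Pck1 and G6pc, helped by the coactivator PGC-1α, and insulin represses both genes. GLUT1 (Slc2a1) and hexokinase 2 (Hk2) are scarce in resting adult hepatocytes and common in proliferating, hypoxic and many non-hepatocyte cells.

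Slc2a1, Hk2, Fbp1, Ppargc1a and Pfkfb3 read higher on both Drp1LiKO arrays than on both control arrays. Except for Pfkfb3, the 250 bases before their annotated starts are shown, from RefSeq on GRCm38.p6, 5′ to 3′. Matches to the motifs searched are in capitals.
Slc2a1, chr4:119108495-119108744, plus strand: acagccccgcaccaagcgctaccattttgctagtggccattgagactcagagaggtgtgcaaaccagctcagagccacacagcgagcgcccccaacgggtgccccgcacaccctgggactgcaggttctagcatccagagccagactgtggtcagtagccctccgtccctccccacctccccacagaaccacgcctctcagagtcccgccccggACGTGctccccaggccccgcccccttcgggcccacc
Hk2, chr6:82774455-82774704, minus strand: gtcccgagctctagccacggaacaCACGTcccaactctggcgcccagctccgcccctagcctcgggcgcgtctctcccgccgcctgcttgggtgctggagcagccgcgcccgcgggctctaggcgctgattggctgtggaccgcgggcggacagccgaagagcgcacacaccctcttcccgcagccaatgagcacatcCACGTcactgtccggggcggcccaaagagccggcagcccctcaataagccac
Fbp1, chr13:62888283-62888532, minus strand: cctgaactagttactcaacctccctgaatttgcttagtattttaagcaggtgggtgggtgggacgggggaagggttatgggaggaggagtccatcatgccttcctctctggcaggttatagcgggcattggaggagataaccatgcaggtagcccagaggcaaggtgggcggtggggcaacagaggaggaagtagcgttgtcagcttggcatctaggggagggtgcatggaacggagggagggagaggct
Ppargc1a, chr5:51567726-51567975, minus strand: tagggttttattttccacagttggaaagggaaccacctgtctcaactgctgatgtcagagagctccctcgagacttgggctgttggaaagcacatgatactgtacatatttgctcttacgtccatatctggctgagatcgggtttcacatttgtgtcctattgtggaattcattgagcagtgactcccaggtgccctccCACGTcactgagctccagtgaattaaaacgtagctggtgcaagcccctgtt
The letters searched on both strands were ACGTG (the core of the hypoxia response element), TGACGTCA and TTACGTCA (cAMP response elements), TGTTTAC and TGTTTTG (forkhead factors), AGGTCA (nuclear receptors) and TATAAA. On the strand shown, CACGT is ACGTG read from the opposite strand. ACGTG stood in the windows of Slc2a1, Hk2, Ppargc1a and Pfkfb3, and in 16.6% of 32851 windows of this length. The Hk2 window held 2 matches. None of these letters stood in the Fbp1 window. TTACGTCA stood in the Pck1 window from 93 to 86 bases before the start, and in 0.45% of all windows. TATAAA stood in windows of G6pc and Pklr, and in 12.4% of all windows. AGGTCA stood in windows of G6pc, Pklr and Slc2a2, and in 14.0% of all windows. TGTTTTG stood in the G6pc window, and in 5.56% of all windows. These matches describe the letters only.

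Ppargc1a and Pfkfb3 each had another probe besides the brighter one that stands for the gene, and these are shown because they read differently from it. The capitals TAA mark the last 3 bases of the Ppargc1a probe. In the mm9 coordinates of the scanner tables it lies at chr5:51849419-51849478 on the minus strand, and the Pfkfb3 probe spans an exon junction within chr2:11404189-11405602 on the minus strand. All its bases are in lower case, since no part of it is marked.
Ppargc1a: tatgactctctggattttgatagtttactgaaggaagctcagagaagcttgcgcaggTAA
Pfkfb3: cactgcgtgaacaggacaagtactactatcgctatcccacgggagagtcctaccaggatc

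Values below are log2 intensities after the 75th percentile of the array was subtracted, so 0 is that percentile, and a level of 1 probe cannot be set against that of another. The ± after a difference is the scanner software's own error estimate for the 2 spots combined. It holds measurement error on the array and nothing of the spread between mice. A gene was counted as different when 2 arrays differed by at least 1 log2 unit, which is 2-fold, provided that 1 or both had the probe well above background. This count has no test.

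**Figure D1:**
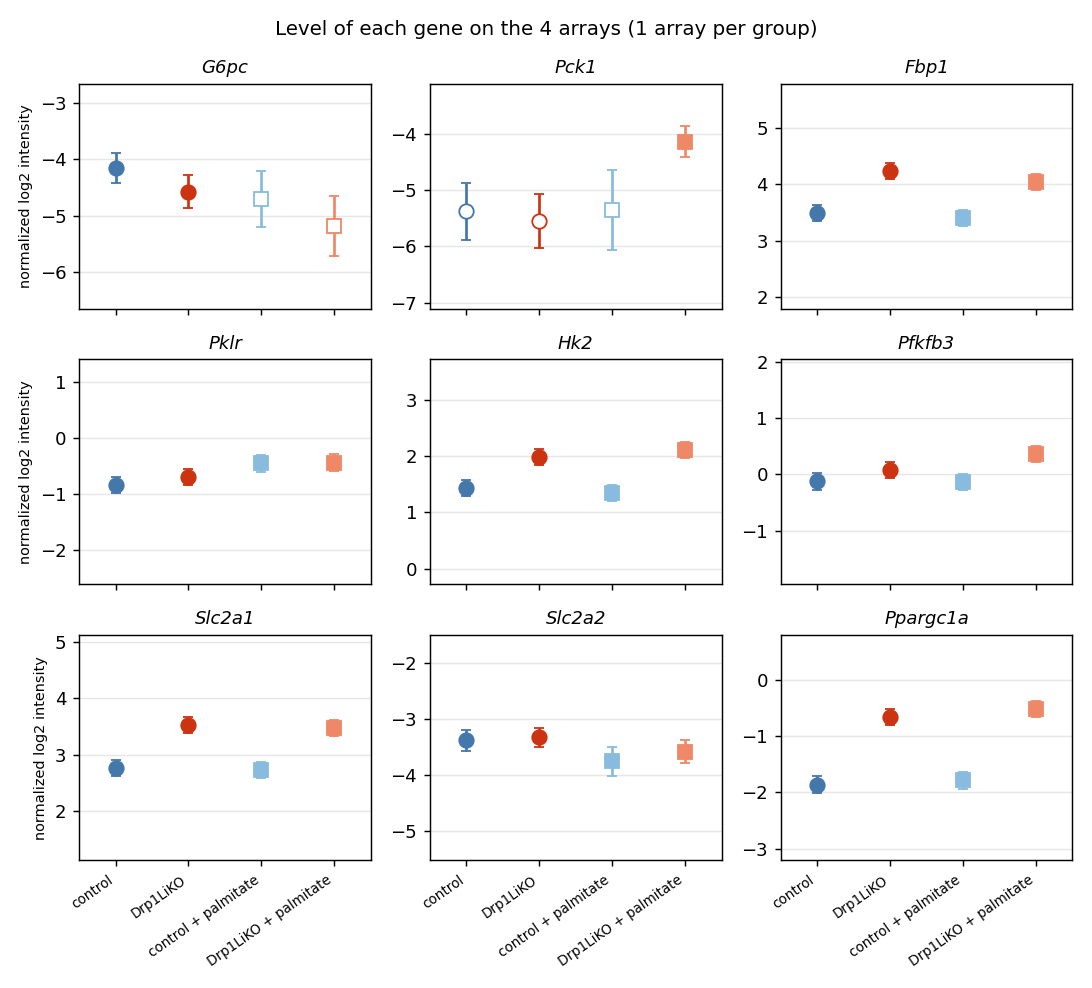
Normalized log2 intensity (vertical axis, 0 is the array's 75th percentile) of each gene on the 4 arrays, 1 point per array, with the scanner's error estimate as the bar. Open symbols were not well above background. Every panel spans the same range. Ppargc1a, Fbp1, Slc2a1, Hk2 and Pfkfb3 lie higher on both Drp1LiKO arrays than on both control arrays. For Pfkfb3 the untreated difference was no more than the scanner error.

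Between genotypes, 1 of 8 measured genes (Ppargc1a) differed by 2-fold in untreated cultures, where 14.4% of 19876 genes did, 8.83% being higher and 5.59% lower in Drp1LiKO. With palmitate 2 of 8 did (Ppargc1a and Pck1), against 11.5% of 18891 genes, 7.26% higher and 4.26% lower. The median difference, Drp1LiKO minus control, was 0.38 untreated and 0.69 with palmitate over the genes described here, and −0.02 and −0.03 over all genes. The palmitate figures include Pck1, which passed only through the array where it was high, and leave out G6pc, which read lower there at −0.48 without being measured. Restricted to the 7 that every array detected, the medians were 0.55 and 0.64, and −0.04 and −0.05 over the 16612 genes. Both Drp1LiKO arrays lay above both control arrays for 5 of the 9 genes (Fbp1, Hk2, Pfkfb3, Slc2a1 and Ppargc1a), an order that 26.9% of the 20616 genes had, and the opposite order held for 0 of the 9 and for 31.5% of the 20616. Over genes well above background on all 4 arrays, the first order held for 5 of 7 and for 25.7% of 16612, and the opposite for 0 of 7 and for 35.1%.

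Of the gluconeogenic enzymes, only Fbp1 was well above background on all 4 arrays, so no shared direction could be read. Fbp1 encodes fructose-1,6-bisphosphatase, which bypasses the phosphofructokinase step. Its probe (mm9 chr13:62966175-62966234, minus strand) read 3.49 in control, 4.23 in Drp1LiKO, 3.41 in control with palmitate and 4.04 in Drp1LiKO with palmitate. Drp1LiKO was higher by 0.74 ± 0.20 untreated and by 0.64 ± 0.20 with palmitate, or 1.67-fold and 1.56-fold. The order was Drp1LiKO, Drp1LiKO with palmitate, control, control with palmitate, and the neighbours within a genotype lay closer than the scanner error. Of the 24 spots around the Fbp1 probe, 3 were lit on the control array alone and 1 on the Drp1LiKO array alone, where the mean over all spots was 0.29 and 0.60.

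G6pc encodes the catalytic subunit of glucose-6-phosphatase, the last step of glucose output. Its probe (chr11:101238947-101239006, plus strand) was near background throughout. The untreated arrays read −4.15 (control) and −4.57 (Drp1LiKO), which differ by −0.42 ± 0.39. The palmitate arrays read −4.70 in control and −5.18 in Drp1LiKO, both not well above background, so no genotype difference was measured there. Set against the lowest signal well above background on the palmitate array, untreated control stood 1.01-fold above it. That is 0.02 log2 units, where the scanner error of the untreated control spot alone was 0.26. No minimum was thus set in control, and no bound could be set in Drp1LiKO. The 24 spots around this probe held 4 lit on the control array alone and 2 on the Drp1LiKO array alone, more than the means of 0.29 and 0.60, and the part of this in the G6pc values was not tested.

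Pck1 encodes the cytosolic phosphoenolpyruvate carboxykinase, the entry step of gluconeogenesis. Its probe (chr2:172984307-172984366, plus strand) was not well above background in control at −5.38, in Drp1LiKO at −5.55 or in control with palmitate at −5.35. It read −4.14 in Drp1LiKO with palmitate, an intensity of 26.6 against 10.4 to 11.7 on the other arrays. The measured difference was 1.21 ± 0.76 from control with palmitate and 1.41 ± 0.56 from untreated Drp1LiKO. Set against the lowest signal well above background on the dim array, Drp1LiKO with palmitate stood 1.02-fold above control with palmitate and 1.75-fold above untreated Drp1LiKO. These are 0.03 and 0.80 log2 units, where the scanner error of the bright spot alone was 0.27. Against control with palmitate no minimum was thus set. The 2-fold counts of Pck1 therefore rest on readings below the background limit.

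Among the glycolytic control enzymes, hexokinase 2 and Pfkfb3 read higher in Drp1LiKO and Pklr did not separate. On its brighter probe, Pfkfb3 did so beyond the scanner error only with palmitate. Hk2 (chr6:82675056-82675115, minus strand) read 1.44 in control, 1.99 in Drp1LiKO, 1.35 in control with palmitate and 2.11 in Drp1LiKO with palmitate. The genotype difference was 0.55 ± 0.20 untreated and 0.76 ± 0.20 with palmitate, or 1.47-fold and 1.69-fold. Within a genotype the untreated and palmitate arrays differed by less than the scanner error.

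Pfkfb3 encodes a bifunctional enzyme that makes fructose 2,6-bisphosphate, an activator of phosphofructokinase. Its brighter probe (chr2:11393579-11393638, minus strand) read −0.13 in control, 0.08 in Drp1LiKO, −0.14 in control with palmitate and 0.36 in Drp1LiKO with palmitate. The genotype difference was 0.20 ± 0.20 untreated, no more than the scanner error, and 0.50 ± 0.21 with palmitate. The junction probe printed above read −5.63 and −5.72 on the control arrays, both not well above background, and −4.06 and −4.25 on the Drp1LiKO arrays, both well above it. By this probe untreated Drp1LiKO stood 1.60-fold above the lowest signal well above background on the control array. That is 0.68 log2 units, where the scanner error of the Drp1LiKO spot alone was 0.22. With palmitate no bound could be set. The mean of both probes gave 0.89 untreated and 0.98 with palmitate, so the size for Pfkfb3 depends on the probe.

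Pklr encodes the liver pyruvate kinase, the last step of glycolysis, which glucose and insulin induce. Its probe crosses a junction within chr3:88948907-88949425 (plus strand). It read −0.84 in control, −0.69 in Drp1LiKO, −0.45 in control with palmitate and −0.44 in Drp1LiKO with palmitate. The genotypes differed by 0.15 ± 0.21 untreated and 0.01 ± 0.21 with palmitate, within the scanner error. Both palmitate arrays lay above both untreated arrays, by 0.39 ± 0.21 in control and 0.25 ± 0.21 in Drp1LiKO. The palmitate arrays share 1 slide and the untreated arrays another, so palmitate and slide cannot be told apart.

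The glucose transporters divided in the same way as the enzymes, with GLUT1 separated by genotype and GLUT2 not. Slc2a1 (chr4:118809864-118809923, plus strand) read 2.77 in control, 3.53 in Drp1LiKO, 2.72 in control with palmitate and 3.47 in Drp1LiKO with palmitate. The genotype difference was 0.76 ± 0.20 untreated and 0.75 ± 0.20 with palmitate, or 1.69-fold and 1.68-fold. Palmitate arrays differed from untreated ones by −0.04 in control and −0.05 in Drp1LiKO, less than the scanner error of 0.20. The junction probe of Slc2a2, within chr3:28625253-28625961 (plus strand), read −3.38, −3.33, −3.76 and −3.59 in the same order of groups. This probe was well above background on all 4 arrays but dim, at intensities of 31.3 to 53.8. Its genotype differences were 0.05 ± 0.25 untreated and 0.17 ± 0.33 with palmitate, within the scanner error, and both turned below 0 with normexp. Palmitate minus untreated was −0.38 ± 0.32 in control and −0.25 ± 0.27 in Drp1LiKO, the latter 0.04 with normexp.

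Ppargc1a encodes PGC-1α, a coactivator of mitochondrial biogenesis and of the fasting programme in the liver. Among the probes that stand for the genes, it had the only difference past 2-fold between genotypes in both conditions with readings above background. The brighter probe (chr5:51848928-51848987, minus strand) read −1.87 in control, −0.65 in Drp1LiKO, −1.79 in control with palmitate and −0.52 in Drp1LiKO with palmitate. Drp1LiKO was higher by 1.21 ± 0.21 untreated and by 1.27 ± 0.21 with palmitate, or 2.32-fold and 2.41-fold. With normexp background correction these were 0.91 and 0.96, which ends the 2-fold call in both conditions. Among genes well above background on both arrays compared, 3.23% of 17653 read as far or farther above control untreated, and 1.88% of 16785 with palmitate. The TAA-ending probe printed above read −3.91, −1.86, −3.68 and −2.53 in the same order of groups. It gave the same direction with differences of 2.05 and 1.14, so the probes disagreed in size in untreated cultures.

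**Figure D2:**
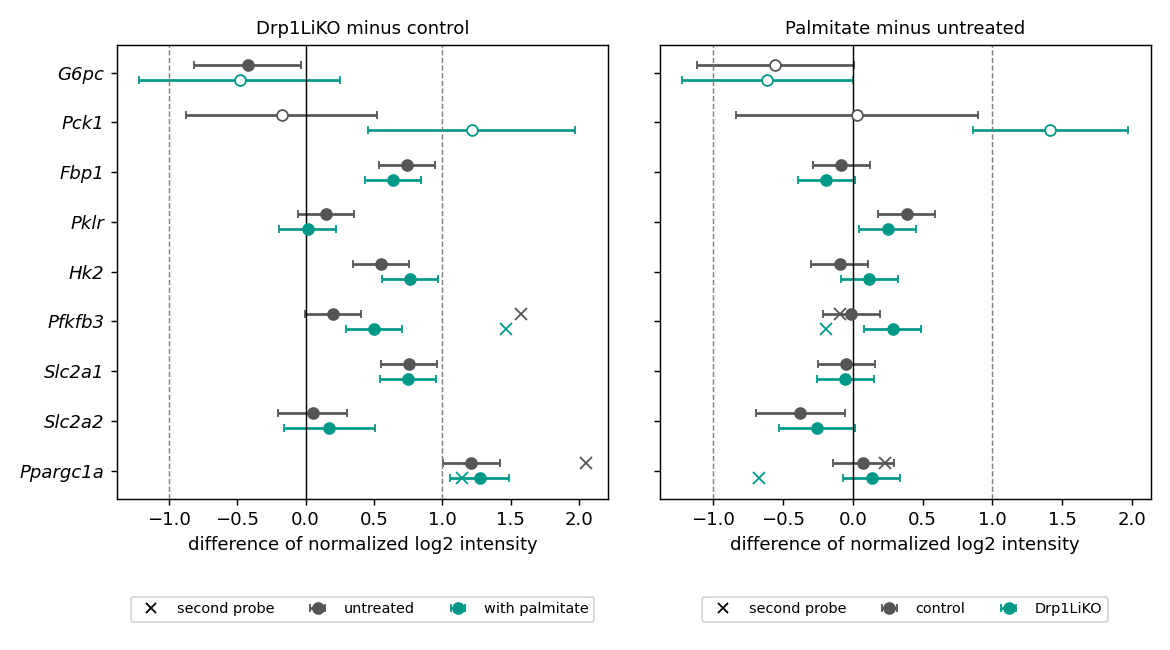
Differences of normalized log2 intensity for each gene, Drp1LiKO minus control on the left and palmitate minus untreated on the right, with the combined scanner error of the 2 spots as bars and dashed lines at 2-fold. Open circles had fewer than 2 arrays well above background, and crosses are the second probes of Pfkfb3 and Ppargc1a, dim on both control arrays for Pfkfb3. The genotype differences of Ppargc1a pass 2-fold in both conditions, though not with normexp, and apart from Pck1 no palmitate difference does.

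The palmitate responses were small. Between palmitate and untreated cultures 0 of 8 genes differed by 2-fold in control, against 5.71% of 18774 genes, 2.83% higher and 2.88% lower. In Drp1LiKO 1 of 9 did (Pck1), against 7.04% of 19747 genes, 3.93% higher and 3.11% lower. The median response was −0.06 in control and 0.12 in Drp1LiKO, and 0.01 and 0.00 over all genes. The response differed by 2-fold between genotypes for 1 of 9 genes, again Pck1, against 10.8% of 20616 genes, 5.3% with the higher response in Drp1LiKO and 5.51% with the lower. The responses of Ppargc1a were 0.08 ± 0.22 in control and 0.14 ± 0.21 in Drp1LiKO. Its TAA-ending probe gave 0.23 ± 0.35 in control and −0.67 ± 0.22 in Drp1LiKO, where the probes thus disagreed in sign. The 2 genotype comparisons use different arrays, and over both the mean difference ± SD (n = 2 conditions) was 1.24 ± 0.04 for Ppargc1a, 0.75 ± 0.01 for Slc2a1, 0.69 ± 0.07 for Fbp1, 0.66 ± 0.15 for Hk2 and 0.35 ± 0.21 for Pfkfb3. This SD lies between the conditions and holds nothing of the spread between mice.

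The additive limma model, with genotype and palmitate as terms over the 4 arrays and 1 residual degree of freedom, called 0 of the 9 genes and 0% of 20616 genes for genotype at a Benjamini-Hochberg adjusted p under 0.05. The residual of a gene holds only the difference between its 2 palmitate responses. The intervals and p-values below therefore hold nothing of the spread between mice or cultures. At an unadjusted p under 0.05 the model counted 5 of the 9 genes and 5360 of the 20616. The genotype term was 1.24 for Ppargc1a (95% interval 0.95 to 1.53, limma adjusted p = 0.119). The unadjusted count includes G6pc, whose term was −0.45 (−0.74 to −0.16, limma adjusted p = 0.147) and rests in part on readings below the background limit. The term was 0.75 for Slc2a1 (0.48 to 1.03, limma adjusted p = 0.121), 0.69 for Fbp1 (0.38 to 1.00, limma adjusted p = 0.126) and 0.66 for Hk2 (0.26 to 1.05, limma adjusted p = 0.144). The term for Pklr was 0.08 (−0.25 to 0.41) and that for Slc2a2 was 0.11 (−0.21 to 0.44), intervals that reach to either side of 0. The intervals for Pfkfb3, at 0.35 (−0.14 to 0.84), and Pck1, at 0.52 (−1.38 to 2.42), did so too. That of Pck1 rests mostly on readings below the background limit. With the variance fitted as a trend on intensity the same model called 25.9% of 20616 genes. Ppargc1a, Slc2a1, Fbp1 and Hk2 were then among the calls, with limma adjusted p-values of 0.000847, 0.00123, 0.00152 and 0.00441, and Pfkfb3 missed with 0.0578. Restricted to the 16612 genes detected on every array, the model called 15.6%, with Ppargc1a, Slc2a1, Fbp1 and Hk2 among them at limma adjusted p-values of 0.0168 to 0.0372. With normexp background correction it called 7.34% of 20616 genes, Ppargc1a, Slc2a1 and Fbp1 among them, and with the table of processed values 0%.

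The genes around these enzymes were read from 8 lists holding 139 genes, 137 of them on the array. Of those measured, 12 of 126 were 2-fold higher in Drp1LiKO untreated and 5 lower, or 13.5% against 14.4% of all genes. With palmitate 11 of 125 were higher and 3 lower, or 11.2% against 11.5%. Palmitate against untreated gave 0 higher and 2 lower of 125 in control, or 1.6% against 5.71% of all genes. In Drp1LiKO it gave 4 higher and 1 lower of 126, or 3.97% against 7.04%. The genotype counts of each list below stand beside the shares of all genes. These were 8.83% higher and 5.59% lower untreated, and 7.26% higher and 4.26% lower with palmitate. The all-gene medians were −0.02 and −0.03.

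The other enzymes of gluconeogenesis counted 2 higher and 0 lower of 14 untreated, and 1 higher with palmitate. Tat, the tyrosine aminotransferase that feeds carbon into the pathway, had genotype differences of 1.50 without palmitate and 1.22 with it. Gpt, alanine aminotransferase, was higher by 1.05 and 0.90, with 0.63 and 0.33 on its other probe. Mdh2, mitochondrial malate dehydrogenase and the brightest of the list, differed by 0.06 and −0.01.

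The glycolytic control genes other than Pklr, Hk2 and Pfkfb3 counted 2 higher of 19 in both conditions, with 1 lower with palmitate. Pfkfb4, a relative of Pfkfb3, read −2.84 in control, −0.59 in Drp1LiKO, −2.50 in control with palmitate and −0.92 in Drp1LiKO with palmitate, differences of 2.25 and 1.58. Its other probe stayed near background on all arrays. Pdk4, the kinase that shuts pyruvate out of the citric acid cycle in fasting, was higher by 1.83 and 1.81. Pdk3 was lower, with differences of −0.71 and −1.19, of which its other probe gave −0.74 and −0.07. Pdp2, which reverses these kinases and was the brightest of the list, differed by −0.09 and 0.28.

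The remaining glycolytic enzymes counted 2 higher and 1 lower of 19 untreated and 2 higher and 1 lower of 18 with palmitate. Hk3, the hexokinase found mainly in white blood cells, was higher in Drp1LiKO by 1.84 and 1.79. Pfkp, the platelet-type phosphofructokinase, was higher by 1.16 and 1.23, and its other 2 probes measured on all arrays gave 1.01 and 2.40 untreated. Ldhb, a lactate dehydrogenase subunit, differed by −0.97 and −1.44. Gapdh differed by −0.08 and −0.11.

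Of the other hexose and lactate transporters 1 of 8 was higher and 2 lower untreated, and 2 higher and 1 lower with palmitate. Slc2a6 and Slc5a2, counted among them, were each measured on 1 array. Slc2a5, the fructose transporter GLUT5, read −2.26 and −1.85 on the control arrays and −4.14 and −3.75 on the Drp1LiKO arrays, differences of −1.87 and −1.90. Slc16a3, the lactate exporter MCT4, was higher by 1.00 and 1.34, and its other probe stayed near background on all arrays. Slc16a1, the lactate transporter MCT1, differed by −0.28 and −0.12.

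The transcription factors and coactivators of gluconeogenesis counted 1 higher and 1 lower of 21 untreated, and 2 higher with palmitate. Creb3l3, a liver factor of the fasting response, was higher in Drp1LiKO by 1.18 and 1.21, and Klf15, a factor of amino acid use in fasting, by 0.97 and 1.08. Crtc2, the CREB coactivator that glucagon switches on, read 0.61 on the untreated Drp1LiKO array and 1.67 to 1.92 on the other arrays. Its other probe gave genotype differences of −0.85 untreated and 0.55 with palmitate. Trib3 differed by 0.22 and 0.11.

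Glycogen genes counted 1 higher of 16 in both conditions, Ppp1r3c, a glycogen-targeting subunit of protein phosphatase 1 measured on 2 arrays. Gsk3b, a kinase of glycogen synthase, read 2.73 on the untreated Drp1LiKO array and 1.60 to 1.79 on the others, and its other probes well above background on all arrays gave untreated differences of 0.39 and 0.08. Pygm, the muscle-type phosphorylase, was higher with palmitate by 1.05 in Drp1LiKO and by 0.38 in control, and Pgm2 differed between genotypes by 0.29 and 0.26. Insulin and glucagon signalling genes counted 1 higher of 17 untreated and 0 with palmitate, with medians of −0.30 and −0.28. Of these, 14 of 17 lay below 0 untreated, against 52.2% of all genes, and 14 of 17, not all the same, with palmitate, against 53.7%. Pde4b, which breaks down cAMP, differed by 1.05 and 0.61, with 0.97 and 1.32 on the other probe measured on all arrays, and Prkar1a differed by 0.08 and 0.10.

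Targets of the hypoxia-inducible factor outside glycolysis counted 2 higher and 1 lower of 12 untreated, and 1 higher with palmitate. These are 25.0% against 14.4% of all genes untreated, and 8.33% against 11.5% with palmitate. The medians were 0.56 and 0.53, against −0.02 and −0.03 over all genes. Car9, a carbonic anhydrase measured on 2 arrays, was the lower one untreated and the higher one with palmitate. Adm, adrenomedullin, read higher in Drp1LiKO, by 1.98 without palmitate and 0.74 with it. Ddit4, an inhibitor of mTORC1, was higher by 1.11 and 0.18.

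**Figure D3:**
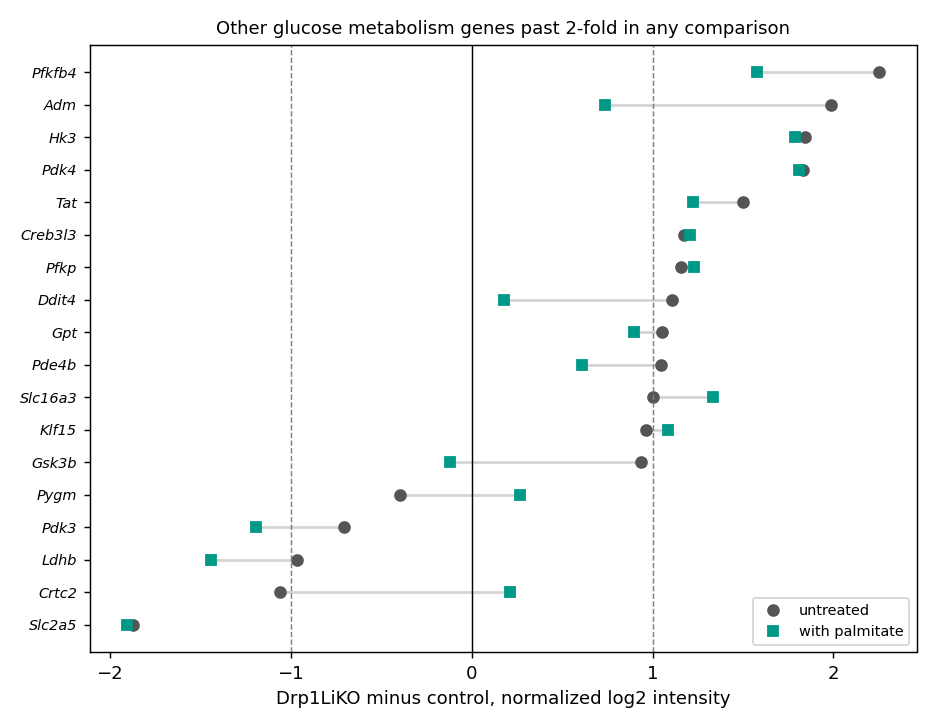
Drp1LiKO minus control (normalized log2 intensity, horizontal axis) for the 18 listed genes that were well above background on all arrays and past 2-fold in at least 1 comparison, untreated as circles and with palmitate as squares, dashed lines at 2-fold. Pdk4, Hk3 and Slc2a5 hold nearly the same value in both conditions, whereas Adm, Ddit4, Gsk3b and Crtc2 do not.

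Among 16611 other genes on all 4 arrays, those with the profile nearest to Ppargc1a after each was centred were Nrg4, Dusp9 and H2-T22, at Euclidean distances of 0.07, 0.07 and 0.08 log2 units over 4 arrays. Nrg4 encodes a secreted growth factor, Dusp9 a phosphatase of MAP kinases and H2-T22 a class I histocompatibility protein. A distance within 0.20 was reached by 38 genes, so 4 arrays did not single out a few.

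Dnm1l, read as a check of the labels, was lower in Drp1LiKO by 1.35 and 1.42 on its brighter probe, while its other probe, near background, gave −0.35 untreated. The arrays had 44.7% to 51.1% of 56605 probes well above background and 0 saturated spots. The 12 hepatocyte markers were well above background on every array, and their summed linear level ran from 1358 to 1393 in units of the 75th percentile. Serpina1a and Alb, at 9.45 and 8.82 in log2 on the control array, made up most of this sum. Past 2-fold higher in Drp1LiKO were 3 of the 12 untreated and 3, not all the same, with palmitate. The shares over all genes were 8.83% and 7.26%. The list medians were 0.22 and 0.22, with Tat at 1.50 and 1.22 and Cyp2e1 at −0.66 and −0.72.

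Markers of macrophages, endothelial cells and stellate cells differed with genotype in the same direction as Ppargc1a, Slc2a1, Fbp1 and Hk2. The 17 macrophage markers measured summed to 25.5 in control, 58.4 in Drp1LiKO, 30.6 in control with palmitate and 56.5 in Drp1LiKO with palmitate. Of these, 14 of 17 were 2-fold higher in Drp1LiKO untreated and 13 of 16 with palmitate, against 8.83% and 7.26% of all genes. Short of 2-fold in both conditions were Csf1r (0.59 and 0.42), Cd14 (0.22 and 0.05) and Ptprc (0.17 and −0.02). Cd14 was the brightest of the list on the control array, at 3.72 in log2. Timd4 and Cd163 stayed near background throughout. The endothelial sum was 2.34, 6.46, 2.43 and 4.63 in the same order, with 9 of 12 and 7 of 11 higher, and Tek lower with palmitate by a difference of −2.36. The stellate sum was 45.2, 62.6, 46.5 and 59.3, with 7 of 9 and 6 of 8 higher, and the list medians were 3.03 and 2.54 in log2. Acta2 made up most of this sum and differed by 0.22 and 0.02, whereas Dcn differed by 4.19 and 4.04. Cholangiocyte markers summed to 60.5, 41.8, 57.1 and 43.6, neutrophil markers to 1.37, 1.42, 1.59 and 2.01, lymphocyte markers to 0.56, 0.92, 0.64 and 0.80, and erythroid markers to 2.10, 2.30, 1.75 and 1.95. In bulk RNA, fewer cells of a type and less RNA per cell cannot be told apart. The part of these cells in the values of Slc2a1, Hk2, Fbp1, Ppargc1a and Hk3 was not tested.

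**Figure D4:**
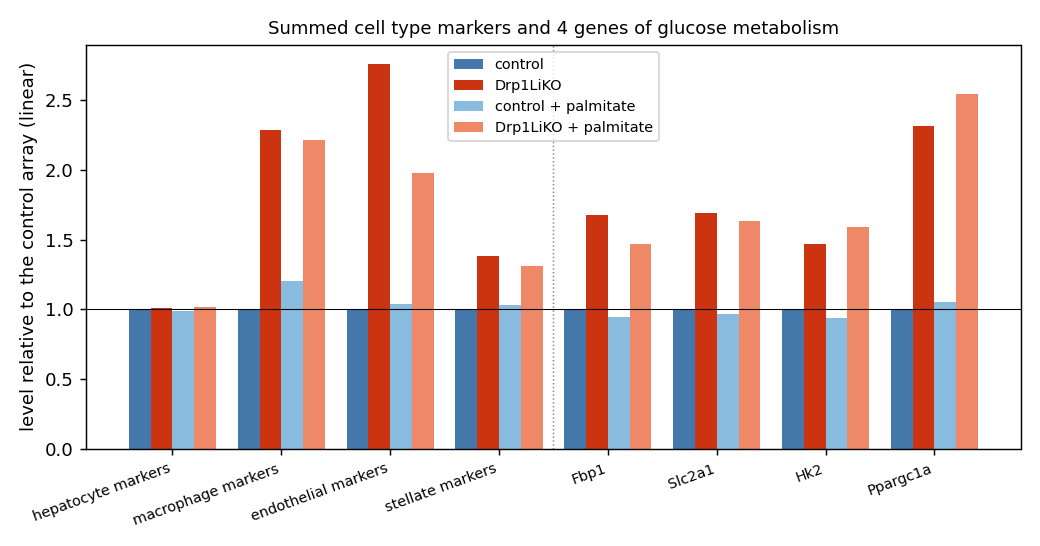
Linear level on each array relative to the untreated control array (vertical axis, 1 is that array) for the summed markers of 4 liver cell types and for 4 genes of glucose metabolism, 1 bar per array and no replicates. The stellate sum is mostly Acta2, and the hepatocyte sum is mostly Serpina1a and Alb. Cd14, the brightest macrophage marker on the control array, differed between genotypes by 0.22 untreated and 0.05 with palmitate in log2. The medians of the macrophage list were 2.34 and 1.72 in log2. Macrophage markers stand at 2.29 and 2.21 on the Drp1LiKO arrays, Ppargc1a at 2.32 and 2.55, and hepatocyte markers at 1.01 and 1.02.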

How the data were processed

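Primary mouse hepatocytes of 4 groups were measured on 1-colour (Cy3) whole-genome oligonucleotide arrays, 1 per group. Groups come from the sample labels. The authors deposited scanner intensity values on a linear scale, background-subtracted and detrended within each array by Feature Extraction, version 10.7.1.1 in the file headers and 9.5.1.1 in the submitters' processing notes. A further deposited table holds processed intensities whose 4 columns share 1 distribution, and it served as an alternative. RNA kits differ between the labels and the methods.

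Processed signals were set on a log2 scale and the array's 75th percentile was subtracted. Control and outlier spots were left out, repeat spots averaged, and a gene was its brightest probe among those well above background on at least 1 array. Probe positions are those of the scanner tables (mm9), which do not pair them with exons or UTRs. Bounds used the lowest signal well above background on the dim array, and they leave out the scanner error of the bright spot.

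Genotype was fitted with limma 3.58.1 (R 4.3.3; two-sided, Benjamini-Hochberg) together with palmitate. On simulated data with the fitted spread, this genotype fit over 20616 genes recovered 0 of 200 genes changed by 1 log2 unit and 0 of 200 changed by 2. With an equal spread, set by hand and not taken from the data, it recovered 200 of 200 at either size. Fitted with an intensity trend, the fitted spread again gave 0 of 200, whereas on the real data that model called 5347 genes. The simulated spread therefore differs from that of the data. With 1 residual degree of freedom, values of 0 calls say little, and the simulation does not settle how little. Each slide holds both genotypes and 1 condition.

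Named genes were all 9 genes chosen by symbol. Of the 8 pathway lists, those on all 4 arrays past 2-fold in any of the 4 differences and the brightest of each list were named, with Dnm1l, the 3 profiles nearest to a chosen gene that spanned 1 log2 unit, and the 8 marker lists. Ppp1r3c, Slc2a6, Slc5a2 and Car9, outside this rule, were named after their values were seen. An item of the lists is not reported here. The genes, lists and rules were chosen with earlier results of these data known. Alternatives were normexp on the mean and background signals (offset 50), stricter or no background filter, values raised to the floor, the mean of all probes of a gene, scaling to the median of probes on all 4 arrays, and the deposited table.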

Additional observations from a re-analysis of the deposited data

Results flagged for a closer look

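Each of these values is an untested difference between 4 single arrays. The palmitate response of Hk2 was −0.09 ± 0.20 in control and 0.12 ± 0.20 in Drp1LiKO, which differ by 0.21 log2 units. Each of these responses was smaller than the scanner error, so neither has a determined direction. The palmitate response of Pfkfb3 was −0.01 ± 0.21 in control and 0.29 ± 0.20 in Drp1LiKO, which differ by 0.30. The junction probe of Pfkfb3 gave −0.19 in Drp1LiKO. Neither difference was tested.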

How the results depend on the processing

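Of 288 values of the 9 genes under the alternatives, 280 kept their side of the 2-fold limit and 8 (Pck1 and Ppargc1a) kept only their direction. Of the 280, 11 changed sign, none of them past 2-fold: G6pc for palmitate in Drp1LiKO from −0.61 to 0.01 (normexp) and 0.06 (floor), and between responses from −0.06 to 0.10 and 0.08; Slc2a2 between genotypes untreated from 0.05 to −0.09 (normexp) and −0.11 (deposited table), with palmitate from 0.17 to −0.02, and for palmitate in Drp1LiKO from −0.25 to 0.04 (both normexp); Slc2a1 between responses from −0.01 to 0.01 (median scaling); Ppargc1a, averaged over its probes, for palmitate in Drp1LiKO from 0.14 to −0.27 and between responses from 0.06 to −0.42. With normexp, Ppargc1a read 0.91 and 0.96, Pck1 0.16 against control, 0.51 for palmitate in Drp1LiKO and 0.37 between responses, and the genes past 2-fold numbered 0 in every comparison that had any. Requiring both arrays well above background, or raising values to the floor, left 1 gene (Ppargc1a) between genotypes with palmitate and 0 in the palmitate response of Drp1LiKO and between responses. Pck1 at the floor read 0.03, 0.80 and 0.24. Raising to the floor lifts readings below the limit by definition, and normexp here adds 50 to every signal. The scanner intensities were 10.4 to 26.6 for Pck1 and 123 to 345 for the brighter Ppargc1a probe. The part of each setting in these changes was not tested further.

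Counts over all genes, in the order genotype untreated, genotype with palmitate, palmitate in control, palmitate in Drp1LiKO and difference of responses, were 2868, 2176, 1072, 1390 and 2227. Normexp gave 1053, 688, 315, 411 and 539. The filter on both arrays gave 1379, 933, 187, 432 and 298, fewer genes being tested, and no filter 4682, 3936, 2890, 3531 and 4901. Raising to the floor gave 2145, 1472, 668, 909 and 1334. The limma genotype term called 0 genes, 5347 with an intensity trend, 2584 over genes on all 4 arrays, 1514 with normexp (Fbp1, Slc2a1 and Ppargc1a among them) and 0 with the deposited table, where 5334 had an unadjusted p under 0.05. No paired analysis was possible because the labels carry no replicate numbers to pair by; slide, which equals condition, is already a term of the limma model. Leaving out an array removes the comparisons that use it and the model's residual degree of freedom. Signal near background limits G6pc, Pck1 and the Pfkfb3 junction probe, and the Slc2a2 probe was dim.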
